A study of Mus musculus with 8 samples.

Results

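The genes described here encode the core histones H2A, H2B, H3 and H4 and their variants. Of 26930 genes in the count table, 66 carried a GENCODE M21 symbol beginning with Hist1 to Hist4 followed by h2a, h2b, h3 or h4, or with H2af or H3f3. Linker histone H1 genes were not included. The 66 members were split by name into 54 replication-dependent cluster genes (14 H2A, 16 H2B, 11 H3 and 13 H4) and 12 genes named after replacement variants. The latter comprised 8 genes that make a variant protein (H2afj, H2afv, H2afx, H2afy, H2afy2, H2afz, H3f3a and H3f3b), 3 copies of an H3.3 gene (H3f3a-ps1, H3f3a-ps2 and H3f3c) and the antisense gene H3f3aos. The annotation holds 81 genes that match the rule, of which 15 were not analysed here.

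RNA came from MDSCs (myeloid-derived suppressor cells), which dampen T cell responses, grown in culture from the bone marrow of C57BL/6 mice. All cells received GM-CSF and IL-6, each at 40 ng/ml, and, on day 4, medium conditioned by TRAMP-C1, a mouse prostate tumour cell line, and the labels call them senescent-like. Of 8 libraries, 4 came from untreated cells and 4 from cells given 0.5 µM Romidepsin, an inhibitor of histone deacetylases, for 6 h, so a Romidepsin effect can be read only in this senescent-like state. No label ties a library to its own culture or animal, so p-values reflect sample-to-sample spread alone, part or all of which can be technical.

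A cell that copies its DNA must also make new core histones to wrap it. The replication-dependent genes, packed in clusters, meet that need in S phase, and their mRNAs normally end just after a stem-loop that is bound by the stem-loop binding protein Slbp, with no poly(A) tail. The replacement variants (H2A.Z, H2A.X, macroH2A, H3.3) are made outside S phase too, mostly from spliced and polyadenylated mRNAs, and are placed by their own chaperones. The libraries were made from poly(A)-selected RNA, so a cluster gene was measured through whatever part of its mRNA was retained by that selection, and mRNAs that end at the stem-loop were not measured as such.

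The stem-loop sequences are shown because they mark the usual 3′ end of cluster histone mRNAs. A pattern of 16 bases was searched after the stop codon on the coding strand of each annotated transcript: GG, any 2 bases, CTTTT, any base, AG, any 2 bases and CC. It was found in 35 of 54 cluster genes and in 1 of 12 replacement-variant genes, H2afx, against 0.108% of 37191 protein-coding transcripts of other genes. Of the 19 cluster genes where it was not found, 11 have 0 to 2 annotated bases after the stop codon and 3 are pseudogenes with no annotated coding end, so 5 had enough sequence to search. The loop of 4 bases is in capitals, and the stem of 6 bases on each side in lower case. A sequence identical to that of Hist1h2ac was held by 18 members, to that of Hist1h3e by 5, to that of Hist1h4d by 7, and to those of Hist1h4i and Hist1h4j by 2 each. The sequences of Hist2h2ac and H2afx were each held by 1 member. The H4 genes shown differ from the H2A and H3 cluster genes shown in the middle of the stem. H2afx has the same stem as Hist1h4d and Hist1h4i.
Hist1h2ac (chr13:23683477-23683492, minus strand, GRCm38): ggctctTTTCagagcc
Hist1h3e (chr13:23561903-23561918, minus strand): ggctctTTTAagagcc
Hist2h2ac (chr3:96220418-96220433, minus strand): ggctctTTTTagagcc
Hist1h4d (chr13:23581950-23581965, plus strand): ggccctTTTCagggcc
Hist1h4i (chr13:22040966-22040981, minus strand): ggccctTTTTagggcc
Hist1h4j (chr13:21735437-21735452, plus strand): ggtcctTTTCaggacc
H2afx (chr9:44335240-44335255, plus strand): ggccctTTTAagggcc

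Promoters of 3 members with large changes are shown next, each 250 bases up to the RefSeq start on GRCm38.p6. Capitals mark CCAAT (bound by NF-Y), TATAAA (the TATA box) and ATTTGCAT (the octamer bound by Oct1), on either strand; no matches overlap. The Hist1h2ac window covers most of the 250 bases that GENCODE places between this H2A gene and the H2B gene Hist1h2bc, which lies on the other strand. Hist3h2ba makes an H2B. H3f3b makes the replacement histone H3.3, and its window holds all 3 motifs.
Hist1h2ac (chr13:23683960-23684209, minus strand): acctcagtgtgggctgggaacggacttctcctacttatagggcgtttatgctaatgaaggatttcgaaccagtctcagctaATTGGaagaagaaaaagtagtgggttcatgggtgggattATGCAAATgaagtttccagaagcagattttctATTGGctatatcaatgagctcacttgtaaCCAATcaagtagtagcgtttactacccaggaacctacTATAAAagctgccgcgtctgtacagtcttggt
Hist3h2ba (chr11:58948661-58948910, plus strand): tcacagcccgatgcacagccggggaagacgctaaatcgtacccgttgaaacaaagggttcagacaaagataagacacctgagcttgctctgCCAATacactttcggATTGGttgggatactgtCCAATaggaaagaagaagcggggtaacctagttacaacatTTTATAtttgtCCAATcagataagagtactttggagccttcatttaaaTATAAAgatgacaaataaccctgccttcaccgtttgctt
H3f3b (chr11:116024505-116024754, minus strand): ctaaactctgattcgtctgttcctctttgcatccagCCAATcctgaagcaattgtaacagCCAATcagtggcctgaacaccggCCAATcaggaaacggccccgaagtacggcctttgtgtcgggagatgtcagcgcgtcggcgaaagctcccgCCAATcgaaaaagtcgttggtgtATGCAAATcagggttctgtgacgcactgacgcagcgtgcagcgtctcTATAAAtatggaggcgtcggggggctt

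Across all RefSeq promoters of 300 bases (32851 windows, 250 before to 50 after the start), CCAAT stood in 37.4%, TATAAA in 13.6% and ATTTGCAT in 1.74%. Of the 46 cluster genes with a promoter in the table, 37 held CCAAT, 27 TATAAA and 12 ATTTGCAT. Of the 8 replacement-variant promoters in the table, 6 held CCAAT, and H3f3b alone held TATAAA or ATTTGCAT. Among cluster genes the motifs were no more frequent in those called higher in a fit without a count filter: CCAAT stood in 77.3% of 22 called and 83.3% of 24 uncalled genes, TATAAA in 54.5% and 62.5%, and ATTTGCAT in 22.7% and 29.2%. The motifs were spread by family. CCAAT stood in all 12 H2A, all 13 H2B and all 9 H3 promoters, and in 3 of 12 H4 promoters. ATTTGCAT stood in 6 of 12 H2A and 6 of 13 H2B promoters, and in none of the 9 H3 and 12 H4 promoters. A match is a string of letters and says nothing of a factor's binding.

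Levels are given in CPM, a gene's count relative to its library's total, with libraries scaled by TMM (the trimmed mean of M-values). Total counts ranged from 12996892 to 23176949 per library. Of the 66 members, 20 passed the count filter (at least 0.692 CPM in 4 or more libraries), which left 12852 genes to test by edgeR's quasi-likelihood F test with Benjamini-Hochberg adjustment over all of them, at a threshold of 0.05. Among all genes tested, 20.3% were called higher and 16.2% lower with Romidepsin, and the median log2 fold change was 0.01. In poly(A)-selected bulk RNA, fewer cells of a type and less RNA per cell cannot be told apart.

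In poly(A)-selected RNA, Romidepsin-treated libraries held more cluster histone RNA of all 4 families, together with more H3f3b. Cluster mRNAs that end at the stem-loop were not measured as such. Summed over all 54 cluster genes, whether or not they passed the filter, the level was 21.3, 40.6, 29.2 and 18.9 CPM in untreated replicates 1 to 4 and 155, 252, 97.7 and 174 CPM in treated replicates 1 to 4. The lowest treated library thus lay above the highest untreated one. The mean was 27.5 ± 9.76 CPM untreated and 170 ± 63.6 CPM treated (SD, n = 4 each), a 6.17-fold difference. By family the ratio of mean sums was 5.55 for H2A, 6.14 for H2B, 11.0 for H3 and 6.95 for H4, and in each family all 4 treated libraries lay above all 4 untreated ones. The H2B genes held most of the sum, 102 ± 37.2 CPM after treatment, and the H3 genes least, 6.02 ± 2.75 CPM.

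The replacement variants gave more poly(A)-selected reads from the start. Cluster mRNAs that end at the stem-loop were not measured as such, so this does not rank the classes by total RNA. Their sum was 1383 ± 174 CPM in untreated and 3068 ± 520 CPM in treated libraries. H3f3b carried that difference: without it, the sum was 788 ± 114 CPM untreated and 759 ± 49.6 CPM treated, and the groups overlapped. Within a library, cluster genes gave 1.47, 2.64, 2.06 and 1.67 reads per 100 replacement-variant reads in untreated replicates 1 to 4, and 4.75, 7.15, 4.21 and 5.50 in the treated ones. That ratio does not depend on how libraries were scaled, and here too the groups did not overlap.

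**Figure D1:**
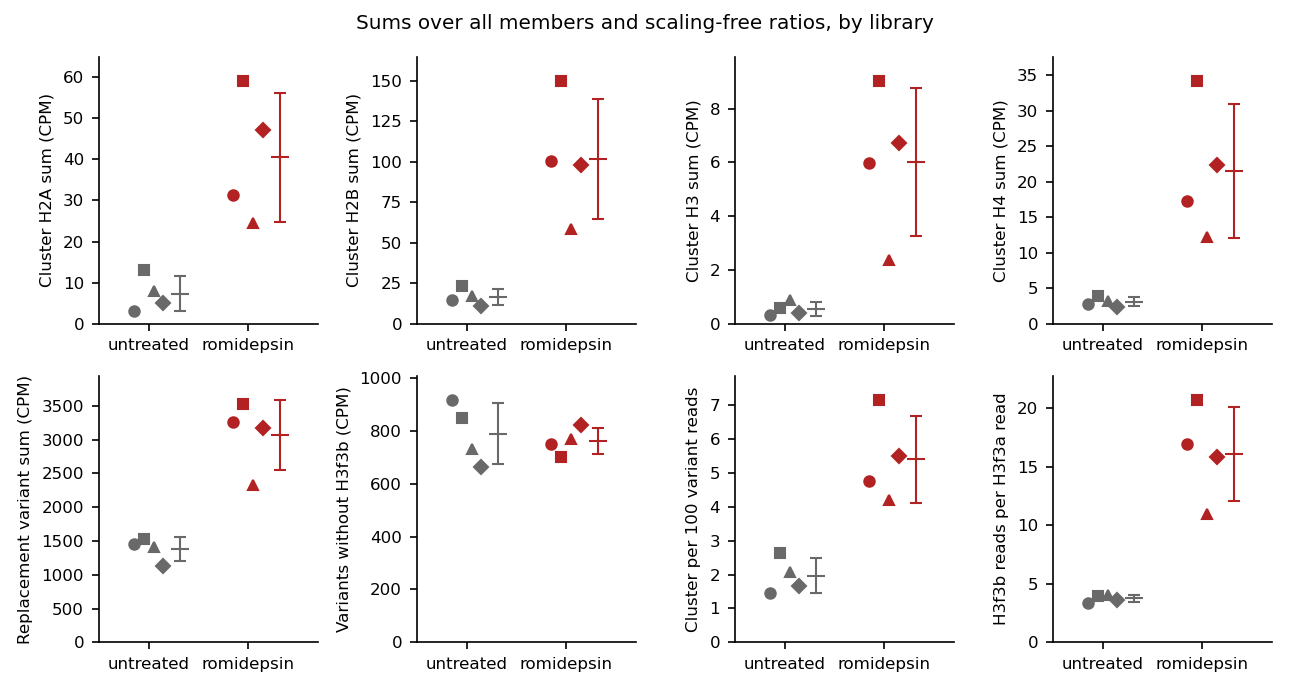
Sums over all 54 cluster genes by family and over the 12 replacement-variant genes (CPM), reads of cluster genes per 100 replacement-variant reads, and H3f3b reads per H3f3a read, in each library; symbols stand for replicates 1 to 4 (circle, square, triangle, diamond) and bars for the mean and SD of 4 libraries. In every panel but the variants without H3f3b, all 4 treated libraries lie above all 4 untreated ones, and treated replicate 2 (square) is the highest.

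The filter bears on how single cluster genes can be counted. Of the 11 cluster genes that passed it, 4 (Hist1h2bc, Hist1h4i, Hist2h2be and Hist3h2a) reached the count minimum in all 4 untreated libraries. The other 7 passed only through the treated libraries, so a difference was built into their passing, and the share called among the 11 is not read further. The fold changes and adjusted p-values given below for these 7 carry the same limit. A fit with no count filter took in all 54: 23 were called higher and 0 lower, where 9.4% of all 26930 genes were called higher. By family these were 3 of 14 H2A, 7 of 16 H2B, 5 of 11 H3 and 8 of 13 H4 genes. In 22 of 54 cluster genes every treated library lay above every untreated one, against 10.9% of all genes in the table. Of the 54, 29 had fewer than 20 counts over the 8 libraries together.

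Among H2B genes, Hist1h2bc (chr13:23684199-23692908) gave the most cluster histone RNA. Its level was 8.95, 17.3, 12.5 and 5.95 CPM in untreated replicates 1 to 4 and 74.0, 98.4, 44.1 and 71.0 CPM in the treated ones. The lowest treated library lay above the highest untreated one. The log2 fold change was 2.69 ± 0.36 (SE; edgeR adjusted p = 0.00178), higher in 4 of 4 same-numbered pairs. Hist1h2bc made up 39.8 ± 5.56% of cluster reads before and 43.2 ± 3.99% after treatment, so its share overlapped between groups. Unlike most members, its annotated transcript has 2 exons and does not hold the stem-loop pattern.

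The other H2B genes above the filter started lower. Hist1h2be went from 0.415 ± 0.159 to 8.37 ± 3.52 CPM, a log2 fold change of 4.35 ± 0.52 (edgeR adjusted p = 0.0011). It shares exon sequence on its own strand with the linker histone gene Hist1h1e, which rose as well (log2 fold change 4.73 ± 0.89, edgeR adjusted p = 0.00524), and reads in the shared part cannot be told apart. Hist1h2bh was 0.240, 0.248, 0 and 0.0484 CPM untreated and 2.29, 6.54, 1.66 and 3.95 CPM treated (log2 fold change 4.75 ± 0.77, edgeR adjusted p = 0.00305). Hist3h2ba is an H2B gene on chromosome 11. It was at 0 CPM in untreated replicates 1 and 4, at 0.0822 in replicate 3 and at 0.991 in replicate 2. In treated libraries it was at 2.98 to 11.0 CPM. Its log2 fold change was 4.48 ± 1.08 (edgeR adjusted p = 0.0135) and 7.55 without untreated replicate 2.

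Hist2h2be changed least among the tested cluster genes. This H2B gene on chromosome 3 has a long annotated 3′ end with AATAAA, the poly(A) signal, in its last 50 bases, and the stem-loop pattern was not found in it. Its level was 4.64, 3.72, 3.62 and 4.64 CPM untreated and 7.92, 11.5, 5.56 and 6.21 CPM treated. The groups did not overlap. The log2 fold change was 0.91 ± 0.30 with an edgeR adjusted p of 0.0398, which rose above the threshold in 7 of 8 fits that left out a library (highest 0.117, without treated replicate 2) and to 0.096 without a count filter. Only leaving out treated replicate 3 kept the call among those 8 fits.

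Of the H2A genes, Hist1h2ac had the largest fitted change of all tested members. It was 0.160, 0.578, 0.0822 and 0.0967 CPM untreated and 5.05, 14.2, 2.18 and 4.92 CPM treated. Untreated replicate 2 was above the other untreated libraries, and treated replicate 2 above the other treated ones. The log2 fold change was 4.86 ± 0.80 (edgeR adjusted p = 0.00311), 5.79 without untreated replicate 2 and 4.16 without treated replicate 2. Hist3h2a, next to Hist3h2ba on chromosome 11, was the most abundant H2A cluster gene, at 6.48 ± 3.99 CPM untreated and 31.8 ± 10.5 CPM treated (log2 fold change 2.30 ± 0.46, edgeR adjusted p = 0.00645). It shares exon sequence with Trim17 on the same strand, whose own level was 0.0406 ± 0.0469 CPM untreated and 0.636 ± 0.302 CPM treated, too low to be tested.

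Cluster H3 and H4 genes were low before treatment, and 2 of 11 H3 and 2 of 13 H4 genes passed the filter. Hist1h3d, an H3 gene, was 0.240, 0.248, 0.164 and 0.338 CPM untreated and 2.41, 3.75, 1.12 and 2.65 CPM treated (log2 fold change 3.25 ± 0.48, edgeR adjusted p = 0.00224). Hist2h3c2, an H3 gene on chromosome 3, was at 0 CPM in untreated replicates 1 and 4, at 0.165 in replicate 2 and at 0.493 in replicate 3, against 0.794 to 2.47 CPM in treated libraries. Its log2 fold change was 3.54 ± 0.90 (edgeR adjusted p = 0.0162) and 5.08 without untreated replicate 3. Of its 75-base stretches 37.4% were unique among annotated transcripts, so reads may come from near-identical copies.

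Hist1h4i was the H4 gene with the most RNA, at 1.76, 2.48, 2.06 and 1.69 CPM untreated and 11.3, 15.2, 7.41 and 12.4 CPM treated. The untreated libraries lay close together, and the log2 fold change was 2.54 ± 0.30 (edgeR adjusted p = 0.00108). Hist1h4d was 0.220 ± 0.0834 CPM untreated and 1.62 ± 0.931 CPM treated (log2 fold change 2.87 ± 0.54, edgeR adjusted p = 0.0052). In 10 of the 11 tested cluster genes treated replicate 2 was the highest treated library, Hist2h3c2 being the exception, and in all 11 treated replicate 3 was the lowest. Leaving out treated replicate 3 kept all 11 calls. As 7 of these genes passed the filter only through the treated libraries, this is read for the other 4.

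**Figure D2:**
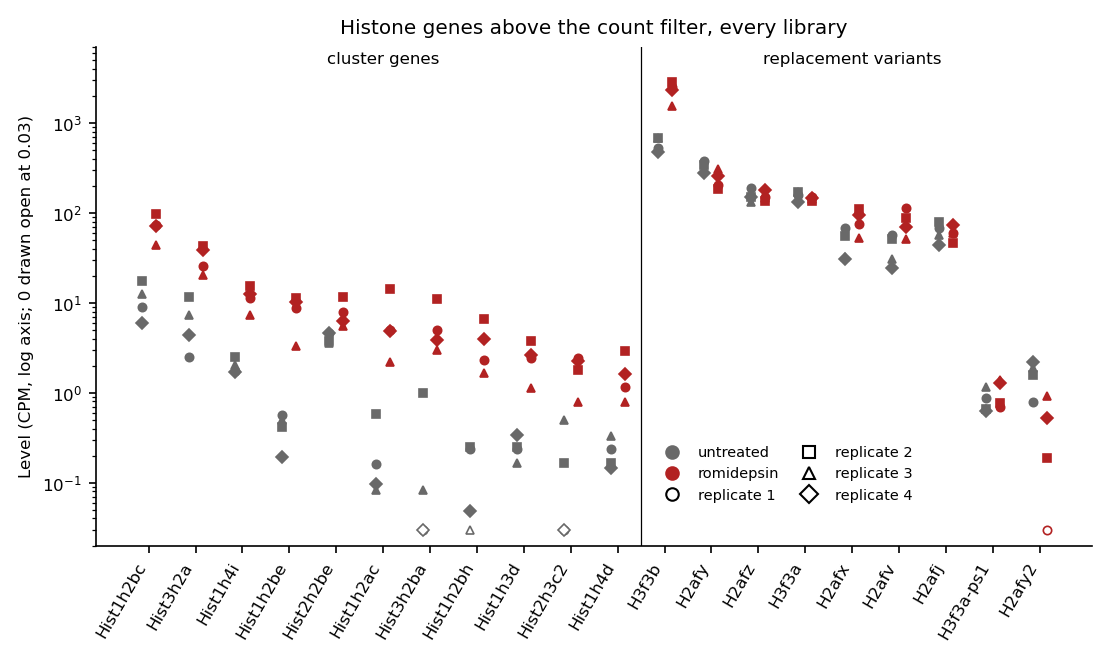
Level of each of the 20 tested histone genes in every library (CPM, log axis), cluster genes to the left of the line and replacement variants to the right; grey is untreated, red is Romidepsin, the symbol gives the replicate, and a level of 0 is drawn open at 0.03. Treated libraries lie above untreated ones for all 11 cluster genes shown, of which 7 passed the filter only through the treated libraries, and for H3f3b; the other 8 replacement-variant genes overlap.

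Below the filter, 43 cluster genes together had 109 counts in the 4 untreated libraries and 1035 in the 4 treated ones. Most of these came from 14 genes with at least 20 counts. The H4 gene Hist1h4j had no count in any untreated library and 10, 25, 15 and 17 counts in treated replicates 1 to 4. Set against a floor of 3 counts over the untreated group, this is at least 20.1-fold higher. The H2B gene Hist1h2bn was likewise at 0 untreated, with 31 treated counts, at least 9.32-fold higher. In all, 16 cluster genes had no count in any untreated library.

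Some low genes were high in a single library. The H4 gene Hist4h4 had 8 untreated counts and 8, 117, 8 and 10 counts in treated replicates 1 to 4. The H2B gene Hist1h2bg had 15 untreated counts and 25, 128, 9 and 17 treated ones. In both, treated replicate 2 gave most of the reads, although every treated library stood above the untreated ones in CPM. Without a count filter Hist4h4 was called at a log2 fold change of 3.83 ± 1.16 (edgeR adjusted p = 0.0485) and Hist1h2bg at 3.31 ± 0.78 (edgeR adjusted p = 0.00824).

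The remaining genes in this range showed the same direction in their summed counts. Among H2A genes, Hist1h2ad went from 1 to 25 counts, Hist1h2ae from 10 to 28 and the pseudogene Hist1h2al, which lies outside the cluster, from 9 to 37. The last had no count in treated replicates 1 and 2. Among H3 genes, Hist1h3e went from 1 to 30 and Hist1h3i from 2 to 27. Among H4 genes, Hist1h4a went from 3 to 32, Hist1h4c from 3 to 61, Hist1h4h from 10 to 73, Hist1h4k from 8 to 66 and Hist2h4 from 11 to 57. Without a count filter Hist1h2ae, Hist1h2al and Hist2h4 were not called (edgeR adjusted p = 0.297, 0.366 and 0.058), and the others named in this paragraph were.

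How much RNA was counted went with the annotated 3′ end. Of the 35 with the stem-loop pattern, 17 have an annotated end more than 100 bases past it and 18 an end within 100 bases, a limit set after the values were known. The first set summed to 11.0 ± 5.46 CPM untreated and 82.7 ± 36.9 CPM treated. The second summed to 0.505 ± 0.26 and 3.19 ± 1.71 CPM. Both were higher in every treated library, by ratios of mean sums of 7.51 and 6.32. The 19 cluster genes without the pattern were led by Hist1h2bc, and the other 18 of them summed to 4.77 ± 0.561 CPM untreated and 11.9 ± 3.78 CPM treated, a ratio of 2.49. Most of that sum was Hist2h2be; without it the other 17 summed to 0.614 ± 0.103 and 4.09 ± 2.58 CPM, a ratio of 6.66.

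That comparison has limits in the annotation. The longer genes also offer more sequence that reads can be assigned to: their longest transcripts had a median of 1138 bases, with a median of 78.1% of 75-base stretches unique among annotated transcripts, against 480 bases and 47.1% in the set that ends near the stem-loop. The part of length and of shared sequence in the level was not tested. Among protein-coding transcripts with annotated bases after the stop, AATAAA stood in the last 50 bases of 9 of 44 from cluster genes and 6 of 16 from replacement-variant genes, against 53.5% of those from other genes.

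**Figure D3:**
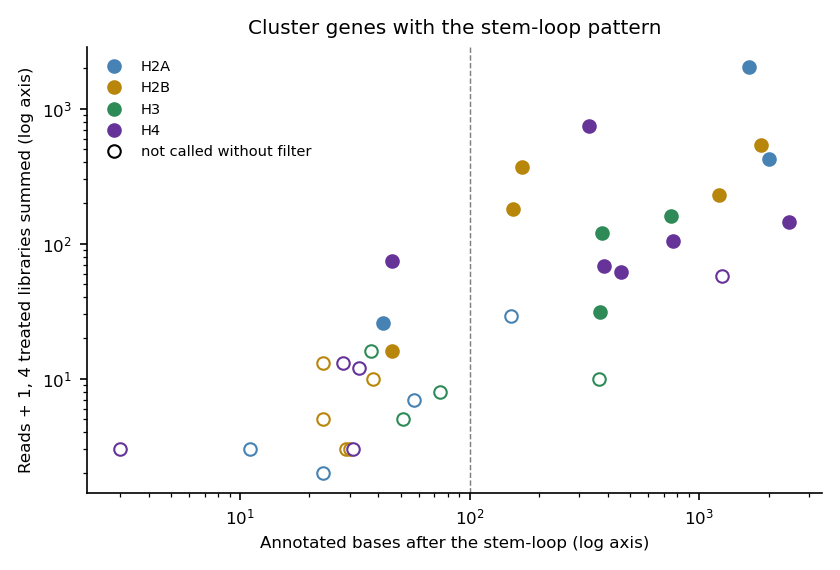
Reads summed over the 4 treated libraries, plus 1 (log axis), against annotated bases after the stem-loop (log axis) for the 35 cluster genes with the pattern, coloured by family; filled points were called higher without a count filter and the dashed line marks 100 bases. The 17 genes to the right of the line hold most of the reads, up to 2024 in Hist3h2a. Of them 14 are filled, against 3 of the 18 to the left and 9.4% of all genes in that fit. Genes to the right also had more treated reads (median 143 against 6.5), and the limit was set after the values were known.

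Cluster H2A and H2B genes often sit head to head and share a promoter region. Among the members, 12 neighbouring pairs had starts that face away from each other within 659 bases, and 11 of them join an H2A with an H2B gene within 301 bases. In the fit with no count filter both genes were called higher in 1 pair, Hist1h2ac with Hist1h2bc. In 6 pairs a single gene was called, and in 5 neither was. Hist1h2bg was called and its partner Hist1h2ae was not, and the same held for Hist3h2a and the pseudogene Hist3h2bb-ps. Hist2h2be and Hist2h2ac were both uncalled in that fit, at 7.80 and 0.0959 CPM after treatment. A call in 1 gene of a pair does not show that the genes differ, which was not tested.

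Among the replacement variants, H3f3b stood apart. It makes H3.3, the H3 variant laid down at active genes and elsewhere outside replication, and it lies on chromosome 11 (chr11:116021912-116027962). Its level was 533, 688, 685 and 472 CPM in untreated replicates 1 to 4 and 2512, 2822, 1555 and 2349 CPM in the treated ones. The lowest treated library was above the highest untreated library. The log2 fold change was 1.96 ± 0.27 (edgeR adjusted p = 0.00197), between 1.85 and 2.08 when any library was left out, and called in all 8 such fits. It was the replacement-variant gene, of 12, whose groups did not overlap.

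H3f3a, on chromosome 1, makes the same H3.3 protein. Its level was 158, 172, 170 and 131 CPM untreated and 149, 136, 142 and 148 CPM treated, and the groups overlapped. The log2 fold change was -0.13 ± 0.15 (edgeR adjusted p = 0.491), but 0.17 with library size alone and 0.58 with housekeeping scaling, so its direction depends on the scaling. Within a library, H3f3b reads per H3f3a read were 3.38, 3.99, 4.03 and 3.60 untreated and 16.9, 20.7, 10.9 and 15.8 treated. The mean ratio went from 3.75 ± 0.315 to 16.1 ± 4.02, with no overlap. A two-sided exact permutation test of the log2 ratio gave p = 0.0286, the smallest that 4 against 4 libraries allow, and 0.0286 after adjustment over the 2 such ratios computed, both chosen with the values known. Exchanging labels only within same-numbered pairs, the exact test gave p = 0.125. As the smallest value that 4 pairs allow, it lies above the threshold whatever the data. It therefore cannot show whether the call depends on pairing. The ratio was higher in 4 of 4 pairs, and H3f3b itself kept its call with the replicate block (edgeR adjusted p = 0.00249).

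H2afv and H2afz both make H2A.Z. H2afv was 56.6, 51.0, 31.1 and 24.6 CPM untreated and 113, 88.5, 51.5 and 68.9 CPM treated, and the groups overlapped although the treated library was higher in 4 of 4 same-numbered pairs. Its log2 fold change was 0.98 ± 0.32 (edgeR adjusted p = 0.0398). The call was lost in 6 of 8 fits that left out a library, with the highest adjusted p, 0.107, without treated replicate 1. The call held without untreated replicate 1 or treated replicate 3. It also held with the replicate block (edgeR adjusted p = 0.00641). H2afz was 154 ± 23.7 CPM untreated and 152 ± 18.5 CPM treated, a log2 fold change of -0.01 ± 0.17 (edgeR adjusted p = 0.955) that was positive, at 0.27 and 0.69, with library size alone and housekeeping scaling. H2afv reads per H2afz read were 0.303, 0.343, 0.238 and 0.165 untreated and 0.761, 0.653, 0.351 and 0.385 treated (two-sided exact permutation p = 0.0286, also after adjustment over the 2 ratios; 0.125 with labels exchanged only within the 4 pairs).

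H2afx, which makes the variant that is phosphorylated at DNA breaks, shares features with the cluster genes: a single exon and the stem-loop pattern shown above, with 822 annotated bases after it. Its level was 67.5, 55.6, 32.1 and 30.8 CPM untreated and 75.5, 109, 52.0 and 94.2 CPM treated. The groups overlapped, and it did not pass the test (log2 fold change 0.83 ± 0.31, edgeR adjusted p = 0.0633). With the replicate block, which compares same-numbered libraries, it passed at an adjusted p of 0.0269. Without untreated replicate 1 or treated replicate 3 it passed as well, at 0.0349 and 0.0227.

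The macroH2A genes H2afy and H2afy2, which make large H2A variants of silent chromatin, had lower values after treatment. H2afy was 377, 337, 306 and 278 CPM untreated and 203, 183, 311 and 254 CPM treated. Treated replicate 3 lay within the untreated range and the other 3 treated libraries below it. The log2 fold change was -0.45 ± 0.22 (edgeR adjusted p = 0.126) and -0.62 without treated replicate 3, where the adjusted p was 0.0358. It was 0.23 with housekeeping scaling.

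H2afy2 was low throughout, at 0.799, 1.57, 1.89 and 2.18 CPM untreated and 0, 0.190, 0.927 and 0.518 CPM treated. It passed the filter through the untreated libraries alone, so the same caution applies as for the cluster genes. Its log2 fold change was -1.98 ± 0.79 (edgeR adjusted p = 0.0738), and it was -2.25 with an adjusted p of 0.0226 in the replicate block fit. It was also called lower by DESeq2 and by limma-voom (adjusted p = 0.0391 and 0.037), and without treated replicate 3, at -2.79 (edgeR adjusted p = 0.0205). Reads of Aifm2, which overlaps it on the opposite strand, cannot be told apart without knowing whether strand was used in counting.

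H2afj, a replication-independent H2A gene linked to senescence in other cells, was 62.1 ± 14.7 CPM untreated and 59.6 ± 10.9 CPM treated (log2 fold change -0.06 ± 0.21, edgeR adjusted p = 0.844). It was 0.23 with library size alone and 0.65 with housekeeping scaling, where the adjusted p was 0.0246. The H3.3 copy H3f3a-ps1 was 0.830 ± 0.241 CPM untreated and 1.03 ± 0.36 CPM treated (edgeR adjusted p = 0.534). It reached the count minimum in 2 untreated and 4 treated libraries, so it too passed the filter through the treated ones. The antisense gene H3f3aos had 21 untreated and 37 treated counts, and H3f3a-ps2 and H3f3c had fewer than 20 counts in all libraries together. Of the 9 replacement-variant genes tested, 2 were called higher and 0 lower, a share higher near the 20.3% of all tested genes; at an unadjusted p under 0.05 these numbers were 3 and 1. With the replicate block they were 3 and 1 (21.2% and 20.8% of all tested genes), with DESeq2 3 and 1 (21.9% and 21.7%), and with limma-voom 2 and 1 (20% and 18.7%).

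**Figure D4:**
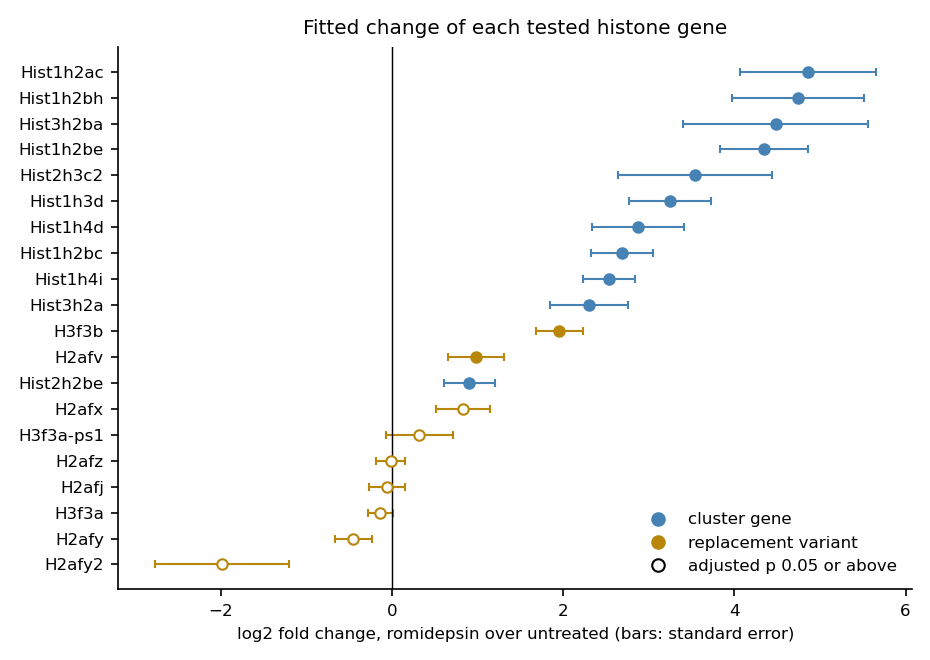
Log2 fold change of each tested histone gene, Romidepsin over untreated, from edgeR; bars are the standard error and open points have an adjusted p of 0.05 or above. Cluster genes (blue) lie between 0.91 and 4.86, and replacement variants (orange) between -1.98 (H2afy2, open) and 1.96 (H3f3b). Of the 11 cluster genes, 7 passed the filter only through the treated libraries.

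Per length, the order of levels moved. In untreated libraries H3f3b had the highest level per kilobase of merged exons among tested members, 200 ± 36.7 CPM per kb, then H2afz at 86.7 ± 13.3, H2afy at 47.6 ± 6.28, H3f3a at 45.0 ± 5.38, H2afj at 33.9 ± 8.01, H2afx at 33.6 ± 13.1 and H2afv at 25.0 ± 9.43. H2afy and H3f3a lay within an SD of each other, and so did H2afj, H2afx and H2afv. The first cluster gene, Hist1h2bc, was at 9.67 ± 4.24 CPM per kb, below all 7. This order holds for poly(A)-selected reads, and cluster mRNAs that end at the stem-loop were not measured as such. In treated libraries H3f3b was at 776 ± 181 and H2afz at 85.8 ± 10.4. Hist1h2bc, at 62.2 ± 19.2, then stood beside H2afx at 59.8 ± 17.9 and H2afv at 49.3 ± 16.3, and their values overlap within an SD. Next among cluster genes were Hist1h4i at 15.9 ± 4.46 and Hist3h2a at 14.8 ± 4.89 CPM per kb, whose values overlap. Per kilobase of the longest transcript, H2afz was at 143 and H2afy at 59.2 CPM per kb after treatment.

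Scaling moved the whole distribution and so the number of replacement variants called. With library size alone the fold changes of all genes shifted by a median of 0.30 on the log2 scale, and with 20 housekeeping genes by 0.69. Calls over all genes went from 2610 higher and 2080 lower to 3886 and 1368, and to 5793 and 618. Under these scalings 3 and 7 replacement-variant genes were called higher. The 7 include H3f3a-ps1, which passed the filter through the treated libraries. H3f3b exceeded both shifts, with log2 fold changes of 2.28 and 2.71. The 11 tested cluster genes, 7 of them in the test only through the treated libraries, stayed higher, between 1.23 and 5.20 and between 1.65 and 5.67. The housekeeping genes themselves summed to 9308 to 13820 CPM untreated and 6061 to 8752 CPM treated.

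Genes that make, process and place histones were read from lists, beside the 20.3% higher and 16.2% lower of all tested genes. With housekeeping scaling, where 45.1% of all tested genes were called higher and 4.81% lower, the counts were 12 higher and 0 lower in processing, 15 and 0 among chaperones, 3 and 0 in exchange and 14 and 1 in S phase. Of the genes named below, Cpsf3, Daxx, Dmap1, Ino80, Mki67, Ssrp1, Tk1 and Znhit1 then lost their lower calls. Hira, Slbp, Mcm6 and Npm1 were called higher with that scaling. In the list of histone mRNA processing and transcription, 5 of 19 tested genes rose and 3 fell, with a median log2 fold change of 0.44. Npat, the coactivator of cluster histone transcription, rose by 0.89 ± 0.26 (log2 fold change; edgeR adjusted p = 0.0265), from 19.6 ± 7.16 to 36.3 ± 6.43 CPM. Nelfe, Ncbp1 and Sympk, factors of pausing, cap binding and 3′ processing, rose by 0.86, 1.04 and 0.58. When a single library was left out, the call of Npat was lost in 5 of 8 fits (untreated replicates 1, 2 and 3, treated replicates 2 and 4), that of Sympk in 6 (all but untreated replicate 4 and treated replicate 3) and that of Ncbp1 in 1 (untreated replicate 3). Nelfe kept its call in all 8. Without a count filter Sympk was not called (edgeR adjusted p = 0.0829). Cpsf3, the endonuclease that cuts the histone pre-mRNA, fell by 0.67 on the log2 scale (edgeR adjusted p = 0.00544), but was at 0.03 with housekeeping scaling and not called with library size alone (adjusted p = 0.0775). Slbp was at 47.0 ± 11.5 CPM untreated and 48.9 ± 3.07 CPM treated (log2 fold change 0.06 ± 0.18, edgeR adjusted p = 0.813). Tut7, which adds uridines to histone mRNA, was the most abundant uncalled gene of the list (log2 fold change -0.45 ± 0.23, edgeR adjusted p = 0.142; 0.043 without treated replicate 3).

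Among histone chaperones 4 of 23 rose and 4 fell, with a median log2 fold change of 0.15. Chaf1b, a CAF-1 subunit that deposits new H3-H4 behind the fork, rose from 17.3 ± 5.1 to 52.3 ± 16.7 CPM (log2 fold change 1.60 ± 0.30, edgeR adjusted p = 0.00548). Asf1b, which hands over H3-H4, rose by 1.22 ± 0.35 and the importin Ipo4 by 1.03 ± 0.30. Ssrp1, a subunit of the FACT complex, fell by 0.96 on the log2 scale (edgeR adjusted p = 0.0025). Daxx, a chaperone of H3.3, fell from 203 ± 85 to 60.9 ± 42.6 CPM (log2 fold change -1.74 ± 0.50, edgeR adjusted p = 0.0253), with lower values in 4 of 4 same-numbered pairs. Hira, the other main H3.3 chaperone, was at 16.3 ± 3.42 untreated and 23.5 ± 3.34 CPM treated (0.53 ± 0.21, edgeR adjusted p = 0.0704). Npm1, the most abundant uncalled chaperone, was at 392 ± 108 and 385 ± 58.6 CPM. When a single library was left out, Daxx and Asf1b each lost the call in 6 of 8 fits (all but untreated replicate 1 and treated replicate 3), with adjusted p up to 0.0678 and 0.0728. Ipo4 lost it in 5 (treated replicates 1, 2 and 4, untreated replicates 3 and 4), and Chaf1b and Ssrp1 kept it in all 8. Daxx also lost its call without a count filter (edgeR adjusted p = 0.0801) and with housekeeping scaling (0.0542). The replicate block kept the calls of Daxx, Asf1b and Ipo4 (edgeR adjusted p = 0.00278, 0.00904 and 0.0118).

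In the complexes that exchange H2A.Z and other variants, 1 of 11 genes rose and 6 fell, with a median log2 fold change of -0.48. The replicate block gave 2 and 4. Dmap1 and Ino80 fell by 0.92 and 1.34 on the log2 scale (edgeR adjusted p = 0.00805 and 0.00977), and Znhit1 fell by 0.93. Ing3 rose by 0.53 ± 0.15 (edgeR adjusted p = 0.0271), a call that held in 2 of 8 fits with a library left out, those without untreated replicate 4 or treated replicate 3, and was lost without a count filter (edgeR adjusted p = 0.108). Ep400 was the most abundant uncalled gene (-0.35 ± 0.27, edgeR adjusted p = 0.314).

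Genes of S phase and proliferation were called in both directions. Of 30 tested, 3 rose and 4 fell, with a median log2 fold change of 0.28, and with the replicate block 6 rose and 4 fell. Mki67, a marker of cycling cells, fell from 184 ± 61.3 to 75.4 ± 19.1 CPM (log2 fold change -1.29 ± 0.29, edgeR adjusted p = 0.0101). Rrm2 and Tk1, which supply DNA precursors, fell by 1.39 and 1.61 on the log2 scale; Tk1 lost its call without untreated replicate 1 or 2 or treated replicate 1 or 4, and with limma-voom (adjusted p = 0.0617). Pcna, the sliding clamp of DNA synthesis, rose from 131 ± 17.3 to 223 ± 47.7 CPM (0.77 ± 0.20, edgeR adjusted p = 0.0162). Mcm6 was the most abundant uncalled gene (0.56 ± 0.29, edgeR adjusted p = 0.154; 0.0344 without untreated replicate 1). The summed level of the list was 779 to 1539 CPM untreated and 800 to 1463 CPM treated.

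The chromosome 13 cluster (chr13:21715763-23762386) holds 43 of the members and 32 non-histone genes of the table. Linker histone H1 genes in the span were not counted among these neighbours. Of these neighbours 6 passed the filter, and 4 were called higher: Zfp184 (log2 fold change 5.22 ± 0.68), Prss16 (4.00 ± 0.27), Abt1 (1.15 ± 0.22) and the long non-coding gene Gm46404, named after its value was seen to complete the count. Zfp184, at 0.198 ± 0.161 CPM untreated and 8.21 ± 3.77 CPM treated, and Gm46404 passed the filter only through the treated libraries, so their calls are not read further. Without a filter 6 of the 32 neighbours were called higher, beside 9.4% of all genes, and 0 lower. Prss16, a serine protease gene, rose from 2.25 ± 0.668 to 36.0 ± 6.86 CPM. Hfe, an iron regulator within the cluster, was at 89.4 ± 17.5 untreated and 39.1 ± 29.1 CPM treated and was not called (edgeR adjusted p = 0.0927). With the replicate block 3 were called higher and 1 lower, Hfe being the latter (adjusted p = 0.0162), and DESeq2 and limma-voom called it lower too (adjusted p = 0.039 and 0.0394).

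Marker levels moved beside these results. The 7 monocyte and macrophage markers summed to 35420 to 47730 CPM untreated and 14140 to 32720 CPM treated, the 9 neutrophil markers to 3505 to 9708 and 976 to 4186 CPM, and 1 gene of each list was called lower. B cell markers summed to 49.5 to 168 and 12.2 to 57.9 CPM, with 2 of 3 called lower. T cell markers summed to no more than 20 CPM and erythroid markers to at most 0.413 CPM in any library. Fibroblast markers reached 47.6 CPM untreated and 164 CPM treated in single libraries. Epithelial markers summed to 4.93 to 177 CPM untreated and 16.2 to 55.9 CPM treated. Dendritic cell markers summed to 1873 to 5879 CPM untreated and 816 to 2216 CPM treated. No gene of the T cell, erythroid, fibroblast, epithelial or dendritic cell lists was called. Their part in the histone results was not tested.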

How the data were processed

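RNA was measured in 8 poly(A)-selected libraries, 4 untreated and 4 given Romidepsin, on a NextSeq 500, per the labels' protocols. The deposited values are raw read counts per Ensembl gene, whole numbers as the authors deposited them. FastQC, STAR 2.5.2a and DESeq2 are named with GRCm38 (mm10), per the submitters' processing notes. The counting tool, annotation release, strand setting and filters were not given in the sources used here, so reads of overlapping, antisense and near-identical genes may be split between them. Of the members, 23 overlap an exon of a gene on the opposite strand and 4 one on the same strand, and in 26 under 50% of 75-base stretches were unique among GENCODE M21 transcripts.

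Groups and replicate numbers came from the sample titles. Counts were fitted with edgeR 4.0.16 in R 4.3.3: filterByExpr, TMM, robust quasi-likelihood F tests (two-sided), 12852 genes, Benjamini-Hochberg adjustment, threshold 0.05, tested beforehand on simulated data. SE is the fold change divided by the root of F. Same-numbered libraries deviated together. Correlations of deviations from group means were 0.525, 0.27, 0.457 and 0.172, and the highest other value was 0.0467. This comes from the data and no label states it. The main fit compared the groups without the replicate number, so its p-values are unpaired. The replicate block and the exchange of labels within pairs used the numbers as pairs. Alternatives were other scalings and filters, DESeq2 1.42.0, limma 3.58.1, a replicate block and leaving out libraries; leaving out both libraries numbered 3, and exchanging labels only within pairs in the ratio tests, were added after seeing the data.

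Members and lists were chosen with earlier results of these data known. Named were all members passing the filter, untested members with at least 20 counts, and, per list, up to 3 called genes of smallest p in the direction most calls took, 1 in the other, the most abundant uncalled gene, and always Slbp, Npat, Asf1b, Chaf1b, Hira, Daxx and Mki67. Promoters and their 54 matches come from RefSeq (GRCm38.p6), transcripts and coordinates from GENCODE. Zcchc6 was matched to Tut7 by synonym. No protein sequence was used here.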

Additional observations from a re-analysis of the deposited data

Results flagged for a closer look

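In untreated replicate 2, Hist1h2ac stood at 0.578 CPM, against 0.0822 to 0.16 CPM in the other 3 untreated libraries. In the same library Hist3h2ba stood at 0.991 CPM, against 0 to 0.0822 CPM in the others. In each case the gap to the next library took up more of the group's range than Dixon's limit for 4 samples allows (shares of 0.843 and 0.917). These were 2 of the 40 groups of 4 libraries examined over the 20 tested members, and chance alone flags about 1 in 20.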

How the results depend on the processing

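The 11 tested cluster genes kept a higher value under every scaling, tool, filter and left-out library that could test them, but 7 of them entered the test only through the treated libraries, so this is read for the other 4 (Hist1h2bc, Hist1h4i, Hist2h2be and Hist3h2a), of which Hist2h2be lost its call. The count of cluster genes higher was 23 of 54 without a count filter and 2 of the 2 genes left with a minimum mean of 10 CPM. It was 11 with the replicate block, 10 or 11 when a library was left out, and no cluster gene was called lower in any fit. Replacement variants higher numbered 7 of 9 tested with housekeeping scaling, where 45.1% of all tested genes were called higher. They numbered 1 to 3 when a library was left out, where 1716 to 3146 of all 12852 genes were called higher. Replacement variants lower numbered 1 with DESeq2, limma-voom, the replicate block and both libraries numbered 3 left out, and 0 to 2 with a single library left out. Of all 12852 genes, 21.7%, 18.7% and 20.8% were called lower in the first 3 of these fits and 2434 genes in the fourth. With a single library left out, 1183 to 3010 were. The replicate block changed no other edgeR call of a member beyond H2afx and H2afy2. Exchanging labels only within pairs, chosen after seeing the data, took both exact ratio tests from p = 0.0286 to 0.125. That is the smallest that 4 pairs allow, so this move was set by the number of pairs and says nothing of pairing. The cause of the other moves was not tested, beyond the smaller gene sets of the stricter filter.

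Reversed values on the log2 scale were these. With library size alone H2afj was 0.23, H2afz 0.27, H3f3a 0.17 and Npm1 0.27. With upper-quartile scaling H2afz was 0.049 and Npm1 0.032. With housekeeping scaling H2afj was 0.65, H2afy 0.23, H2afz 0.69, H3f3a 0.58, Cpsf3 0.034, Ep400 0.32, Npm1 0.73 and Tut7 0.18. With a library left out H2afj ranged from -0.19 to 0.076, H2afz from -0.099 to 0.093, Npm1 from -0.18 to 0.14 and Slbp from -0.015 to 0.25. Npm1 was 0.0033 with the replicate block and 0.012 without both libraries numbered 3. Allowing a mismatch found the stem-loop in 38 members in place of 36, and the median share of unique stretches was 63.3% with 75-mers and 50.6% with 50-mers.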
